A study of Homo sapiens with 12 samples.

Results

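The genes described here are 10 immediate early factors: the FOS family (FOS, FOSB, FOSL1 and FOSL2), the JUN family (JUN, JUNB and JUND), the zinc finger factor EGR1, and IER2 and IER3. They were taken by gene symbol from a pair of deposited expression tables, and all 10 were found among the 12360 genes listed in either table. The SW48 table lists 11554 genes and holds all 10. The 23132/87 table lists 11070 genes and holds 9 of them, since FOSB was not listed there. A gene is listed in a table only where its value reaches 1 in all 6 libraries of that line, so a member below 1 in vehicle could not be followed.

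SW48 is an established colorectal adenocarcinoma line and 23132/87 an established gastric adenocarcinoma line, and both carry the genotype label WT. The 4 groups were SW48 cells given 10 µM myricone C, SW48 cells given vehicle (0.1% DMSO), 23132/87 cells given 10 µM myricone C and 23132/87 cells given vehicle, each for 48 h. Myricone C is a neolignan of Myristica fragrans, per the series title, which places it in relation to ER stress, apoptosis and the kinase ROCK. Each group had 3 libraries described as biological replicates, 12 in all, and each tissue was represented by 1 cell line at 1 dose and 1 time. Poly(A) RNA of cultured cells was sequenced in bulk, so a change per cell and a change in the share of cells in a given state cannot be told apart.

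AP-1 is a dimeric transcription factor made of JUN family proteins paired with each other, with FOS family proteins or with relatives of the ATF and MAF families. Genes of this class are known for rapid, usually brief induction when MAP kinases or stress kinases are activated, with no need for new protein synthesis. SRF bound to CArG boxes, and CREB or ATF proteins bound to cyclic AMP response elements (CREs), drive many of their promoters, and JUN protein activates the JUN gene through an AP-1-like element. In gastrointestinal carcinoma cells AP-1 and EGR1 are known as targets of the RAS-RAF-ERK cascade. FOSL1 and FOSL2 proteins lack the strong activation domain of FOS and FOSB.

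Promoter sequence was matched by symbol for 8 of the 10 members in the RefSeq promoter table of GRCh38.p14, namely all but FOSL1 and IER3. The following 6 carry the elements through which these genes are classically regulated, and they include members with the largest and the smallest changes in these data. Each line gives 150 bases immediately upstream of the RefSeq start, 5′ to 3′ on the strand of the gene. Capitals mark TGACGT, the CRE-type core, on either strand in FOS, FOSB, FOSL2 and JUND. They mark TGACATCA, the AP-1-like element, in JUN, and both CArG boxes, the SRF element, in EGR1, where matches to TGACGT stay in lower case.
FOS (chr14:75278678-75278827, plus strand): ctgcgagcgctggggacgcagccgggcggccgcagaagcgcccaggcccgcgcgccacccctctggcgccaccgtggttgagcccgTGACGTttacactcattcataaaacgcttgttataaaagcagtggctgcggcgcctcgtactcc
FOSB (chr19:45467846-45467995, plus strand): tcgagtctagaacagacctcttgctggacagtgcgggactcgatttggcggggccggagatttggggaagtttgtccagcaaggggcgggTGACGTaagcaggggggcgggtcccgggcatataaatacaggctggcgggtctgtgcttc
FOSL2 (chr2:28392708-28392857, plus strand): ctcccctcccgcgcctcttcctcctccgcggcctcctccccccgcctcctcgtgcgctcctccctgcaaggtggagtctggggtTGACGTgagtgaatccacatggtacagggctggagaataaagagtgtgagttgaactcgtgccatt
JUN (chr1:58784048-58784197, minus strand): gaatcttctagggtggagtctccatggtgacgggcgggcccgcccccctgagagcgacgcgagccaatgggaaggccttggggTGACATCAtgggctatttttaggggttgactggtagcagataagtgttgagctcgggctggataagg
JUND (chr19:18281623-18281772, minus strand): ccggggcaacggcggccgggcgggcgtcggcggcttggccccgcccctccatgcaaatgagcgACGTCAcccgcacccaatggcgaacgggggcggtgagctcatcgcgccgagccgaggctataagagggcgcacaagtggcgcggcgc
EGR1 (chr5:138465329-138465478, plus strand): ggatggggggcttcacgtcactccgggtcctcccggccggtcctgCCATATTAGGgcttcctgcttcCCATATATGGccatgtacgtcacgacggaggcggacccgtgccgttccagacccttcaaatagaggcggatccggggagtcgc

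Motifs were searched on both strands in the 250 bases upstream of 35116 RefSeq starts. TGACGT was present in 5 of the 8 matched members (FOS, FOSB, FOSL2, JUND and EGR1) and in 7.10% of all promoters. TGACG, which lies within TGACGT, was present in 8 of the 8 and in 21.2% of all promoters. The palindromic CRE TGACGTCA, which holds TGACGT, was found in JUND alone of the 8, at positions -200 to -193 from the start, beyond the bases shown, and in 1.65% of promoters. TGACATCA was found in JUN at -67 to -60 and in 2.37% of promoters. CArG boxes were found in EGR1 alone of the 8, at -105 to -96 and -83 to -74, and in 1.16% of promoters. Bases farther upstream than 250 were not searched, so a member with no match here may carry the element there. The canonical AP-1 site TGANTCA was in none of the 8 windows and in 6.57% of promoters, and the EGR site GCGNGGGCG was in EGR1 alone of the 8 and in 8.41%. Of the members with TGACGT, FOS, FOSB, JUND and EGR1 were called higher in each line where they were listed, and FOSL2 in neither. Of those without it, JUN was called higher in both lines, IER2 in SW48 alone and JUNB in neither. Whether any motif goes with the changes was not tested.

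Most of the factors were higher under myricone C in both lines. Differences are given as changes in log2(value + 1) with limma's moderated standard error, and a gene is called at a Benjamini-Hochberg adjusted p under 0.05 over its whole table. In SW48, 8 of 10 members were called higher and 0 lower, where 10.1% of the 11554 listed genes were called higher and 19.2% lower, and the median change of the members was 1.78 against -0.08 for all genes. In 23132/87, 5 of 9 members were called higher and 0 lower, where 23.3% of 11070 genes were called higher and 23.2% lower, and the median change was 0.80 against 0.01 for all genes. No member was lower in either line at an unadjusted limma p under 0.05 (0 of 10 and 0 of 9). The share of all genes lower at that threshold is not given here, but it is at least the 19.2% and 23.2% called lower. FOS, JUN, JUND, EGR1 and IER3 were called higher in both lines, 5 of the 9 in both tables, against 7.15% of the 10264 genes in both. All myricone C libraries lay above all vehicle libraries for 8 members in SW48, where 16.8% of all genes did so, and for 6 members in 23132/87, where 28.9% did so.

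**Figure D1:**
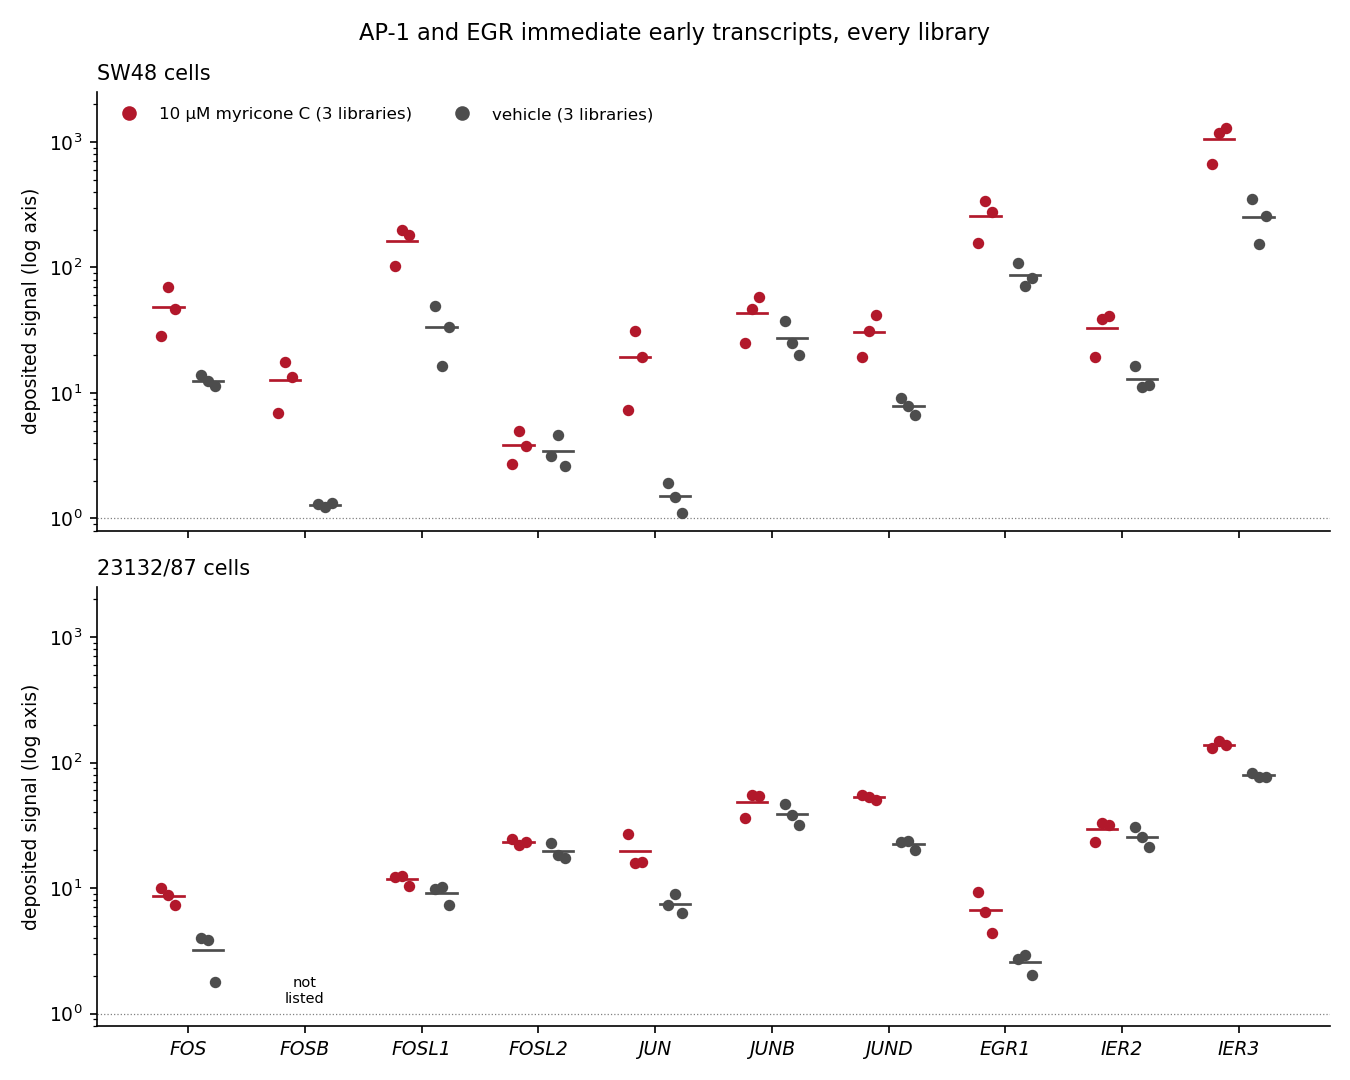
Deposited value of each member in each of the 12 libraries on a log10 axis, with myricone C libraries left of vehicle libraries for each member, SW48 and 23132/87 in separate panels, and a bar at each group mean. In SW48 the myricone C points of 8 members lie wholly above the vehicle points, and in 23132/87 those of 6 members do. JUNB and FOSL2 overlap in both lines.

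FOS, the founding FOS family member, encodes a protein that binds DNA only with a partner such as JUN. In SW48 its values were 28.4, 70.1 and 46.9 under myricone C and 13.8, 12.5 and 11.3 in vehicle. The groups lay apart, and the treated libraries were spread far more widely than the vehicle libraries. FOS averaged 48.5 ± 20.9 in SW48 myricone C cells and 12.5 ± 1.29 in SW48 vehicle cells (SD, n = 3 each), 3.87-fold, a log2 change of 1.78 ± 0.25 (SE, limma adjusted p = 0.000592). In 23132/87 its values were 9.99, 8.81 and 7.35 under myricone C and 4.01, 3.88 and 1.79 in vehicle. The groups again lay apart, and the lowest vehicle library was replicate 3. The 23132/87 means were 8.71 ± 1.32 under myricone C and 3.23 ± 1.25 in vehicle, 2.70-fold, a log2 change of 1.24 ± 0.22 (limma adjusted p = 0.00144).

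FOSB, a close relative of FOS with a strong activation domain, was listed for SW48 alone. Its values there were 6.95, 17.7 and 13.3 under myricone C and 1.31, 1.24 and 1.32 in vehicle. Vehicle libraries sat just above the listing limit of 1, and the mean vehicle value exceeded only 0.338% of the genes in the table, whereas the mean myricone C value exceeded 52.3%. The means were 12.7 ± 5.42 under myricone C and 1.29 ± 0.0410 in vehicle, 9.83-fold, a log2 change of 2.49 ± 0.26 (limma adjusted p = 0.00013). The 1 added before the logarithm lowers the fitted change of so low a gene. FOSB shares bases with ERCC1 on the opposite strand, and ERCC1 is listed in the tables. The library kit was stranded, but the strand setting of the counting is not given in the sources used here. Whether reads of the shared bases were told apart is therefore not known.

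FOSL1, at chr11:65892049-65900573 on the minus strand in GENCODE release 29 on GRCh38, encodes the FOS-related protein best known from invasive carcinoma cells. It gave the clearest contrast between the lines. In SW48 its values were 104, 199 and 182 under myricone C and 49.6, 16.5 and 33.7 in vehicle. The lowest treated library was above the highest vehicle library, and the vehicle libraries themselves differed widely. SW48 means were 162 ± 51.1 under myricone C and 33.3 ± 16.6 in vehicle, 4.86-fold, a log2 change of 2.32 ± 0.34 (limma adjusted p = 0.000681). In 23132/87 its values were 12.3, 12.4 and 10.5 under myricone C and 9.77, 10.1 and 7.31 in vehicle. These groups also lay apart, but narrowly. The means there were 11.7 ± 1.10 under myricone C and 9.08 ± 1.54 in vehicle, a log2 change of 0.34 ± 0.14 with a 95% interval of 0.03 to 0.66, which missed the threshold (limma adjusted p = 0.0703).

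FOSL2, the other FOS-related protein without a strong activation domain, was not called in either line. In SW48 its values were 2.70, 4.99 and 3.76 under myricone C and 3.12, 4.60 and 2.64 in vehicle, and the groups overlapped. The SW48 log2 change was 0.11 ± 0.21, with a 95% interval of -0.35 to 0.57 (limma adjusted p = 0.728). In 23132/87 its values were 24.4, 22.0 and 23.2 under myricone C and 22.9, 18.4 and 17.3 in vehicle, also with overlap. The change there was 0.24 ± 0.12, with an interval of -0.03 to 0.51 (limma adjusted p = 0.126). Without vehicle replicate 1 it was 0.36 and was called (limma adjusted p = 0.0363).

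JUN, the AP-1 subunit that can act as a homodimer or with any FOS protein, had the largest change of the members in SW48. Its SW48 values were 7.28, 31.4 and 19.4 under myricone C and 1.90, 1.48 and 1.11 in vehicle. All treated libraries were far above the vehicle libraries, and replicates 1 and 2 of the treated group lay at the ends of a wide range. The SW48 means were 19.3 ± 12.1 under myricone C and 1.50 ± 0.395 in vehicle, 12.9-fold, a log2 change of 2.83 ± 0.38 (limma adjusted p = 0.000451). The mean vehicle value of JUN exceeded only 1.05% of the genes in the SW48 table, and the mean myricone C value exceeded 67.2%. In 23132/87 its values were 26.8, 15.9 and 16.0 under myricone C and 7.32, 8.88 and 6.32 in vehicle. Replicate 1 stood above the other treated libraries, and there was no overlap. The means were 19.6 ± 6.25 under myricone C and 7.51 ± 1.29 in vehicle, 2.61-fold, a log2 change of 1.25 ± 0.20 (limma adjusted p = 0.000746).

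JUND, usually the most constantly expressed JUN protein, had the smallest standard error of the members called in SW48 and the second smallest in 23132/87. Its SW48 values were 19.3, 31.2 and 41.7 under myricone C and 9.08, 7.91 and 6.61 in vehicle, with no overlap. The SW48 means were 30.7 ± 11.2 under myricone C and 7.87 ± 1.23 in vehicle, 3.91-fold, a log2 change of 1.78 ± 0.23 (limma adjusted p = 0.000387). Its 23132/87 values were 54.9, 53.6 and 50.1 under myricone C and 23.3, 23.5 and 20.2 in vehicle. Here the treated and vehicle libraries formed tight, well separated groups. The 23132/87 means were 52.9 ± 2.44 under myricone C and 22.4 ± 1.84 in vehicle, 2.36-fold, a log2 change of 1.21 ± 0.10 (limma adjusted p = 1.52e-05).

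JUNB, at chr19:12791496-12793315 on the plus strand, encodes a JUN protein that often opposes JUN on shared targets, and was not called in either line. Its SW48 values were 25.0, 46.8 and 57.8 under myricone C and 37.2, 25.1 and 20.0 in vehicle. Treated replicate 1 lay among the vehicle libraries, and the other treated libraries lay above them. The SW48 log2 change was 0.60 ± 0.28, with a 95% interval of -0.01 to 1.22 (limma adjusted p = 0.127). Without myricone C replicate 1 the change was 0.94 and was called (limma adjusted p = 0.00591). Its 23132/87 values were 36.2, 55.0 and 54.0 under myricone C and 47.0, 38.4 and 31.8 in vehicle, again with replicate 1 the lowest treated library and within the vehicle range. The change there was 0.30 ± 0.18, with an interval of -0.10 to 0.70 (limma adjusted p = 0.202), and 0.49 without myricone C replicate 1 (limma adjusted p = 0.0262). JUNB shares bases with HOOK2 on the opposite strand, which is also listed.

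EGR1 is a zinc finger factor that binds GC-rich sites and is induced through CArG boxes such as those printed above. Its mean vehicle value exceeded 93.7% of the genes listed for SW48 and 7.89% of those listed for 23132/87. How each table was scaled is not settled, so its levels are not compared across the lines. Its SW48 values were 157, 337 and 276 under myricone C and 108, 71.6 and 83.0 in vehicle. The groups lay apart. The SW48 means were 256 ± 91.6 under myricone C and 87.4 ± 18.4 in vehicle, 2.93-fold, a log2 change of 1.49 ± 0.24 (limma adjusted p = 0.00121). Its 23132/87 values were 9.25, 6.41 and 4.35 under myricone C and 2.70, 2.94 and 2.04 in vehicle. The groups did not overlap, although the highest treated library was more than 2 times the lowest. The 23132/87 means were 6.67 ± 2.46 under myricone C and 2.56 ± 0.466 in vehicle, 2.61-fold, a log2 change of 1.07 ± 0.22 (limma adjusted p = 0.00318).

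IER3, at chr6:30743199-30744554 on the minus strand, is an early response gene whose product modulates cell survival and ERK signalling, and was the most abundant member in all 4 groups. Its SW48 values were 672, 1183 and 1285 under myricone C and 349, 155 and 259 in vehicle, with no overlap. The SW48 means were 1047 ± 328 under myricone C and 254 ± 97.2 in vehicle, 4.12-fold, a log2 change of 2.06 ± 0.29 (limma adjusted p = 0.000555). Its 23132/87 values were 129.9, 148 and 137 under myricone C and 83.0, 77.2 and 76.3 in vehicle. Both groups were tight and lay apart. The 23132/87 means were 138 ± 8.94 under myricone C and 78.8 ± 3.66 in vehicle, 1.75-fold, a log2 change of 0.80 ± 0.09 (limma adjusted p = 0.000114). An antisense gene, IER3-AS1, shares bases with IER3 but is not listed.

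IER2, at chr19:13150415-13154908 on the plus strand, is an early response gene for a nuclear protein, and was called in SW48. Its SW48 values were 19.3, 39.2 and 40.9 under myricone C and 16.2, 11.1 and 11.6 in vehicle. Treated replicate 1 lay only slightly above the highest vehicle library. The SW48 means were 33.1 ± 12.0 under myricone C and 13 ± 2.82 in vehicle, 2.55-fold, a log2 change of 1.23 ± 0.25 (limma adjusted p = 0.00402). Its 23132/87 values were 23.2, 33.1 and 31.7 under myricone C and 30.5, 25.3 and 21.3 in vehicle, and the groups overlapped. The change there was 0.18 ± 0.16, with a 95% interval of -0.18 to 0.54 (limma adjusted p = 0.383).

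**Figure D2:**
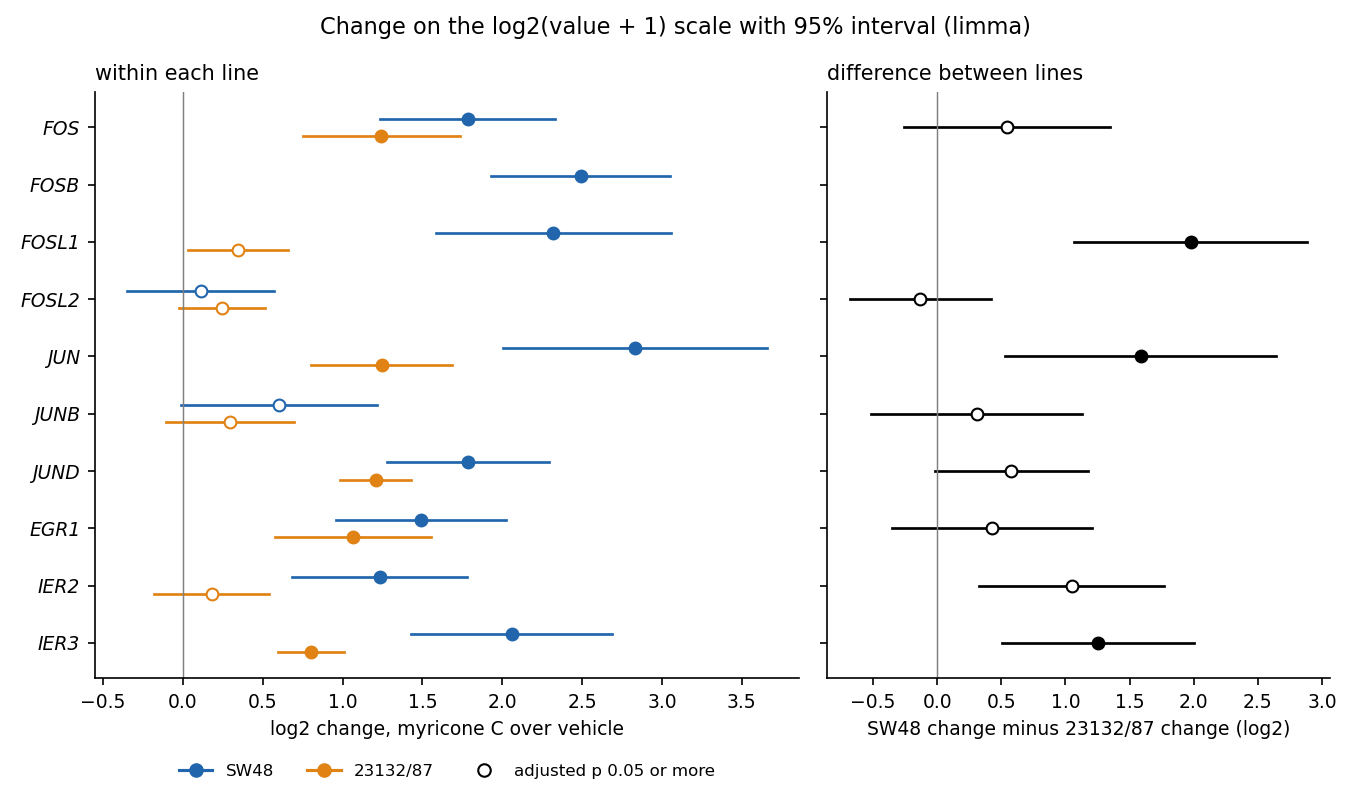
Log2 change of each member, myricone C over vehicle on log2(value + 1), in SW48 and 23132/87, and the difference of the changes (SW48 minus 23132/87) in a panel of its own. Bars are 95% intervals and filled symbols are adjusted p under 0.05 in limma. Of the differences, those of FOSL1, JUN and IER3 are filled, and the interval of FOSL2 crosses 0 in every comparison.

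The response differed between the lines for some factors. A term for line by treatment, from a fit of all 12 libraries, was called higher in SW48 for 3 of the 9 members in both tables and lower for 0, where 5.33% of 10264 genes were called higher and 7.39% lower. FOSL1 changed by 1.98 ± 0.43 more in SW48 than in 23132/87 (limma adjusted p = 0.00814), and this call was kept in all 21 alternatives tried. IER3 changed by 1.26 ± 0.35 more in SW48 (limma adjusted p = 0.0298), and this call was lost in 9 of 21 alternatives, 7 of them fits without 1 library. JUN changed by 1.59 ± 0.50 more in SW48 (limma adjusted p = 0.0486), just inside the threshold, and lost its call in 14 of 20, among them 10 of the 12 fits without 1 library (all but those without myricone C replicate 1 of either line). The JUN difference was 0.82 with 5 added before the logarithm (limma adjusted p = 0.173) and 2.06 with 0.1 added (limma adjusted p = 0.0237). Its SW48 vehicle mean of 1.50 was near the listing limit of 1. IER2 lay just outside the threshold, at 1.05 ± 0.34 with a 95% interval of 0.33 to 1.77 (limma adjusted p = 0.0543).

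For JUND, FOS, EGR1, JUNB and FOSL2 a difference between the lines was not detectable. JUND differed by 0.58, with a 95% interval of -0.02 to 1.17, FOS by 0.54, with an interval of -0.26 to 1.35, and EGR1 by 0.43, with an interval of -0.36 to 1.21. JUNB differed by 0.31 and FOSL2 by -0.13. With 3 libraries a group these intervals leave room for a difference of 1 on the log2 scale for JUND, FOS, EGR1 and JUNB. The EGR1 difference was 0.84 with 5 added before the logarithm and 0.20 with 0.1 added, and that of FOS 0.79 and 0.37. None of these was called. The count of members called for the difference was 1 after leaving out any 1 of 6 libraries, with FOSL1 the member called each time. Of 23132/87 these libraries were vehicle replicates 1 and 2 and myricone C replicate 3. Of SW48 they were vehicle replicate 2 and myricone C replicates 2 and 3. In those fits 8.09% to 10.7% of all genes were called in either direction, a share close to that of the members. Without SW48 myricone C replicate 1 the count was 5, when JUND and IER2 were added, and 13.5% of all genes were called.

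The make-up of each family was described as the share of each member in the summed values of its family within a library. Such sums compare genes on a scale per transcript length, which the deposited values resemble but which is not settled for them. In SW48, JUN made up 19.7% ± 7.88 of the JUN family sum under myricone C and 4.08% ± 0.189 in vehicle (SD, n = 3 each). JUNB made up 46.6% ± 3.34 of it under myricone C and 74.0% ± 2.77 in vehicle. JUND made up 33.7% ± 4.61 under myricone C and 21.9% ± 2.67 in vehicle. The SW48 groups did not overlap for any JUN family share, while the sum itself was 93.3 ± 36.4 under myricone C and 36.8 ± 10.4 in vehicle.

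In the JUN family of 23132/87 the share of JUNB was also lower under myricone C, and JUND took most of the difference, by 11.1 percentage points against 5.36 for JUN, where in SW48 JUN took 15.6 and JUND 11.8. JUNB held 39.9% ± 8.01 under myricone C and 56.4% ± 3.56 in vehicle, with a range of 30.7% to 44.9% under myricone C and of 54.2% to 60.5% in vehicle. JUND held 43.8% ± 2.50 under myricone C and 32.7% ± 2.37 in vehicle, and was the largest of the 3 by mean under myricone C, with a range that overlapped that of JUNB. JUN held 16.3% ± 5.59 under myricone C and 10.9% ± 1.56 in vehicle, with all treated libraries above all vehicle libraries. These shares are a description with no test, and the drop in the share of JUNB accompanied values of JUNB that were not lower.

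The FOS families of the lines were dominated by different members. In SW48, FOSL1 made up 71.8% ± 3.12 of the FOS family sum under myricone C and 63.1% ± 13.8 in vehicle, and its ranges overlapped. FOS made up 21.0% ± 2.62 under myricone C and 26.4% ± 8.28 in vehicle, also with overlap. FOSB made up 5.46% ± 0.581 under myricone C and 2.73% ± 0.817 in vehicle, and FOSL2 1.72% ± 0.192 under myricone C and 7.73% ± 4.75 in vehicle. Neither of these overlapped between the groups. The SW48 sum was 227 ± 77.2 under myricone C and 50.6 ± 16.6 in vehicle.

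In 23132/87 the largest FOS family member was FOSL2, with 53.2% ± 2.93 under myricone C and 61.6% ± 4.43 in vehicle. FOSL1 held 26.9% ± 1.66 under myricone C and 28.5% ± 2.43 in vehicle, with overlap. FOS held 19.9% ± 1.77 under myricone C and 9.88% ± 2.75 in vehicle, and the groups lay apart. The 23132/87 sum, in which FOSB has no value, was 43.6 ± 2.91 under myricone C and 31.9 ± 5.18 in vehicle.

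**Figure D3:**
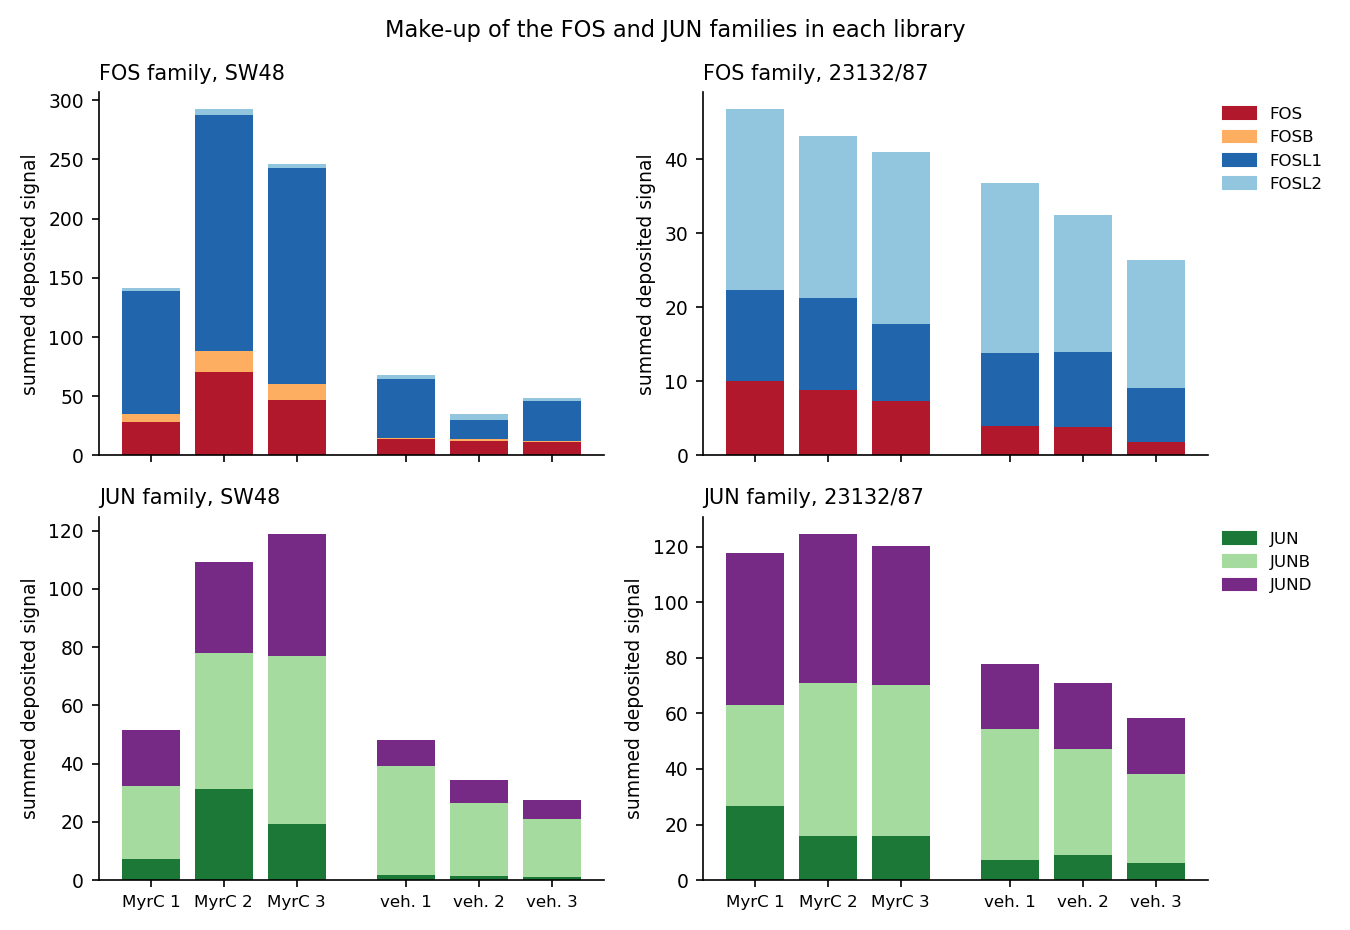
Deposited values of the listed FOS family (top) and JUN family (bottom) members, stacked in each of the 12 libraries, with myricone C libraries left of vehicle libraries in each panel and SW48 left of 23132/87. The vertical axes differ in scale between panels. FOSL1 is the largest part of every SW48 FOS family bar and FOSL2 of every 23132/87 one, and JUNB is the largest part of the JUN family bar in every vehicle library of both lines.

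The order of the member levels was read on the same scale. Under myricone C the SW48 order was IER3, EGR1, FOSL1, FOS, JUNB, IER2, JUND, JUN, FOSB and FOSL2, and in vehicle it was IER3, EGR1, FOSL1, JUNB, IER2, FOS, JUND, FOSL2, JUN and FOSB. Neighbours from FOS down to FOSB overlapped in their ranges under myricone C, as did EGR1 and FOSL1. In vehicle the neighbours that overlapped were FOSL1 and JUNB, IER2 and FOS, and JUN and FOSB. For 23132/87 under myricone C the order was IER3, JUND, JUNB, IER2, FOSL2, JUN, FOSL1, FOS and EGR1, and in vehicle IER3, JUNB, IER2, JUND, FOSL2, FOSL1, JUN, FOS and EGR1. There the ranges of FOS and EGR1 overlapped in both conditions, as did IER2 and FOSL2, JUND and JUNB, and FOSL2 and JUN under myricone C, and IER2 and JUND, JUND and FOSL2, and FOSL1 and JUN in vehicle. By mean, EGR1 was the second highest member in SW48 and the lowest in 23132/87 in both conditions. How each table was scaled is not settled, and this contrast was not tested.

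The treated SW48 replicates differed in a shared way. Myricone C replicate 1 was the lowest treated library for 10 of the 10 members, whereas it was the lowest for 35.0% of all genes in that table. It reached 4.87 times the vehicle mean for JUN, against 21.0 and 12.9 times in replicates 2 and 3, and 2.26 times for FOS, against 5.60 and 3.74 times. The 35.0% takes in genes that fell as well as genes that rose, so it is not matched to the members. Over all genes, replicate 1 was also the treated library nearest to vehicle on the first principal component, the main axis of variation (68.7% of variance). It stood at 14.4, against 36.5 and 29.1 in replicates 2 and 3 and -30.2 to -24.6 in vehicle. In the same library 16 genes for 7SL and small nuclear RNA took 5.26% of the summed values, against 0.0490% to 0.204% in the other SW48 libraries, and their part in the lower member values was not tested. Without it the 8 calls in SW48 were kept and JUNB was added, with JUN at 3.38, FOSB at 2.84 and FOSL1 at 2.61. In 23132/87, vehicle replicate 3 was the lowest vehicle library for 9 of the 9 members, against 38.0% of all genes, and the 5 calls were kept without it.

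**Figure D4:**
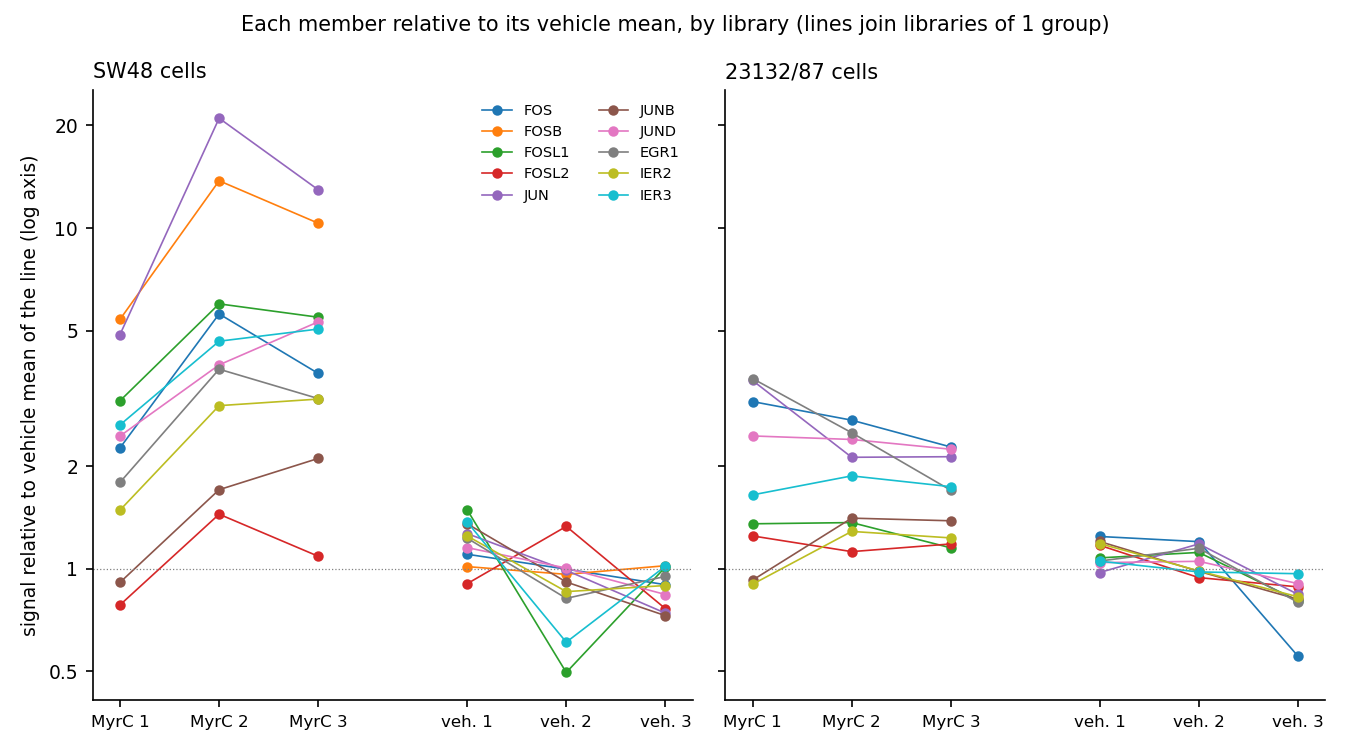
Value of each member in each library over the mean of the vehicle libraries of its line, on a log axis, with lines joining the points of a member only to identify it and myricone C libraries left of vehicle libraries. SW48 myricone C replicate 1 is the lowest treated point of 10 of 10 members, and 23132/87 vehicle replicate 3 the lowest vehicle point of 9 of 9.

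All 12 libraries had summed values of 464037 to 536594, and no pair held identical values. Of 5 epithelial markers 5 were listed in both lines, with a summed level of 2785 to 3956 in SW48 myricone C cells and 1018 to 1789.9 in SW48 vehicle cells, and of 2725 to 3765 in 23132/87 myricone C cells and 7654 to 10248 in 23132/87 vehicle cells. KRT8 and KRT18 carried most of these sums, and single markers went the other way: CDH1 changed by 0.56 in 23132/87 (limma adjusted p = 0.00128), and EPCAM by -0.27 in SW48, not called. Their part in the member results was not tested. Intestinal markers were listed for 4 of 9 in SW48, among them CDX2, LGR5 and CDH17, and for 4 of 9 in 23132/87, among them CDX2, VIL1 and CDH17. Of 8 gastric markers 0 were listed in SW48 and 1, TFF1, in 23132/87, so 7 of the 8 gastric markers had no value in the line labelled gastric. No endothelial marker of 3 was listed in either line, and of 6 fibroblast and 5 leukocyte markers COL1A1 and CD68 were listed, in 23132/87. There CD68 averaged 14.0 ± 0.948 under myricone C and 5.53 ± 1.38 in vehicle, a log2 change of 1.22 (limma adjusted p = 0.000288), and its part in the member results was not tested.

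Called AP-1 partner genes outside the families were all higher. Of 14 partners of the ATF, BATF, JDP and MAF families, 7 were listed in each line. In SW48, 3 rose and 0 fell, with a median change of 0.40, where 10.1% of all genes were called higher and 19.2% lower. At an unadjusted limma p under 0.05, 2 were lower, and the share over all genes at that threshold is not given here. In 23132/87, 5 rose and 0 fell, with a median of 0.71, where 23.3% of all genes were called higher and 23.2% lower. MAFF and MAFG encode small MAF proteins, which lack an activation domain. In SW48 MAFF averaged 7.54 ± 3.46 under myricone C and 1.52 ± 0.248 in vehicle, a log2 change of 1.67 ± 0.27, and MAFG changed by 1.24 ± 0.15. In 23132/87 MAFG averaged 26.3 ± 3.98 under myricone C and 9.41 ± 0.512 in vehicle, a change of 1.38 ± 0.13, and ATF3, a stress-induced factor, changed by 4.18 ± 0.26. MAFF was also called higher in 23132/87, with a change of 1.28 ± 0.13, and ATF3 was not listed in SW48. Of the 6 partners listed for both lines, 0 differed between them at the adjusted limma threshold. Over all 10264 genes, 5.33% were called higher for this difference and 7.39% lower. At an unadjusted limma p under 0.05 the difference was seen for 2, 1 in each direction, and the share over all genes there is not given here. The adjusted count was 1 when replicate 3 of either 23132/87 group was left out, where 11.1% (vehicle) and 10.4% (myricone C) of all genes were called. It was 2 without SW48 myricone C replicate 1, where 13.5% of all genes were called.

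EGR relatives and the regulators of CArG boxes are small groups, set here beside shares over all genes of 10.1% called higher and 19.2% lower in SW48, and 23.3% higher and 23.2% lower in 23132/87. Of the 5 EGR family and NAB genes, 4 were listed in SW48, where 1 rose and 0 fell. Without myricone C replicate 1 these counts were 2 and 0, where 31.6% of all genes were called in either direction. In 23132/87, 2 were listed, of which 0 were called by limma and 0 at an unadjusted p under 0.05. Shares over all genes at the unadjusted threshold are not given here. NAB2, a corepressor that binds EGR proteins, averaged 26.0 ± 3.35 in SW48 myricone C cells and 17.5 ± 0.973 in SW48 vehicle cells, a log2 change of 0.54 ± 0.13. All 6 genes for SRF, its MRTF coactivators and its ternary complex partners were listed in both lines. In SW48, 0 of the 6 were called by limma and 1 at an unadjusted p under 0.05, and 1 fell in 23132/87. That was ELK3, a ternary complex factor, at 2.54 ± 0.252 under myricone C and 3.56 ± 0.166 in vehicle, a change of -0.37 ± 0.13 (limma adjusted p = 0.0361). The ELK3 call was lost on leaving out any 1 of the 6 libraries of that line except vehicle replicate 3.

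Other immediate early genes split in direction. In SW48, 24 of 28 were listed, of which 12 rose and 4 fell, with a median change of 0.66, where 10.1% of all genes were called higher and 19.2% lower. In 23132/87, 26 were listed, of which 12 rose and 7 fell, with a median of 0.14, where 23.3% of all genes were called higher and 23.2% lower. TRIB1, a pseudokinase that scaffolds protein degradation, averaged 68.3 ± 29 in SW48 myricone C cells and 8.55 ± 1.89 in SW48 vehicle cells, a log2 change of 2.78 ± 0.28. It was also called higher in 23132/87, with a change of 1.55 ± 0.23. ZFP36, which binds AU-rich elements and speeds decay of early response mRNAs, changed by 2.29 ± 0.26 in SW48 and by 0.82 ± 0.12 in 23132/87. PPP1R15A, the stress-induced phosphatase subunit that acts on eIF2 alpha, averaged 82.9 ± 27.2 in 23132/87 myricone C cells and 10.5 ± 1.76 in 23132/87 vehicle cells, a change of 2.83 ± 0.20. It was also called higher in SW48, with a change of 2.04 ± 0.25. CCN2, a secreted matricellular protein, went the other way in 23132/87, with 1.88 ± 0.254 under myricone C and 14.2 ± 6.90 in vehicle, a change of -2.32 ± 0.25. Of the 24 listed in both, the signed change was called higher in SW48 than in 23132/87 for 7 and lower for 3. Over all 10264 genes, 5.33% were called higher for this difference and 7.39% lower. Without SW48 myricone C replicate 1 the counts for the 24 were 14 and 3, where 13.5% of all genes were called in either direction.

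Transcripts of the kinases upstream had median changes near 0, at 0.11 in SW48 and -0.11 in 23132/87. Of 21 MAP kinase cascade genes, 20 were listed in SW48, of which 1 rose and 2 fell, where 10.1% of all genes were called higher and 19.2% lower. In 23132/87, 19 were listed, of which 3 rose and 6 fell, where 23.3% of all genes were called higher and 23.2% lower, so the share called there was near that of all genes. MAPK3, which encodes ERK1, averaged 21.6 ± 7.13 in SW48 myricone C cells and 35.6 ± 1.40 in SW48 vehicle cells, a log2 change of -0.74 ± 0.19. RPS6KA1, an ERK-activated kinase, changed by -0.58 ± 0.14 in SW48. MAP2K3, an activator of p38, averaged 22.7 ± 0.858 in 23132/87 myricone C cells and 41.9 ± 4.61 in 23132/87 vehicle cells, a change of -0.85 ± 0.11. MAP2K5, the activator of ERK5, changed by 0.94 ± 0.14 in 23132/87. Transcript levels of kinases do not report their activity.

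Genes that control turnover of FOS and JUN proteins went both ways. Of 9 such genes 8 were listed in each line. In SW48, 2 rose and 1 fell, where 10.1% of all genes were called higher and 19.2% lower, and in 23132/87, 1 rose and 1 fell, where the shares were 23.3% and 23.2%. FBXW7, a ubiquitin ligase subunit that recognises phosphorylated JUN, averaged 9.76 ± 0.771 in SW48 myricone C cells and 5.87 ± 1.09 in SW48 vehicle cells, a log2 change of 0.66 ± 0.15. DDB1, an adaptor of CUL4 ubiquitin ligases, changed by -0.58 ± 0.09 in 23132/87. ITCH, a ubiquitin ligase for JUN proteins, changed by 0.46 ± 0.15 in 23132/87, a call lost without either of vehicle replicates 1 and 2 or of the treated replicates 1 and 3.

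Textbook AP-1 targets, genes with well known AP-1 sites, were mostly higher in SW48. Of 30, 17 were listed in SW48, of which 10 rose and 2 fell, with a median change of 0.92, where 10.1% of all genes were called higher and 19.2% lower. In 23132/87, 12 were listed, of which 6 rose and 3 fell, with a median of 0.34, where 23.3% of all genes were called higher and 23.2% lower. PLAUR, the urokinase receptor, averaged 82.8 ± 32.8 in SW48 myricone C cells and 8.27 ± 2.39 in SW48 vehicle cells, a log2 change of 3.12 ± 0.28, and 38.6 ± 3.39 in 23132/87 myricone C cells and 23.4 ± 4.43 in 23132/87 vehicle cells, a change of 0.71 ± 0.14. HMOX1, a haem-degrading enzyme that NRF2 also drives, changed by 3.73 ± 0.27 in SW48 and 3.97 ± 0.28 in 23132/87. VEGFA, an angiogenic factor with many other regulators, changed by 2.18 ± 0.15 in 23132/87. Of the 11 targets in both tables, the signed change was called higher in SW48 than in 23132/87 for 4 and lower for 0. Over all 10264 genes, 5.33% were called higher for this difference and 7.39% lower. At an unadjusted limma p under 0.05 the counts for the targets were 6 and 0, and the share over all genes there is not given here.

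**Figure D5:**
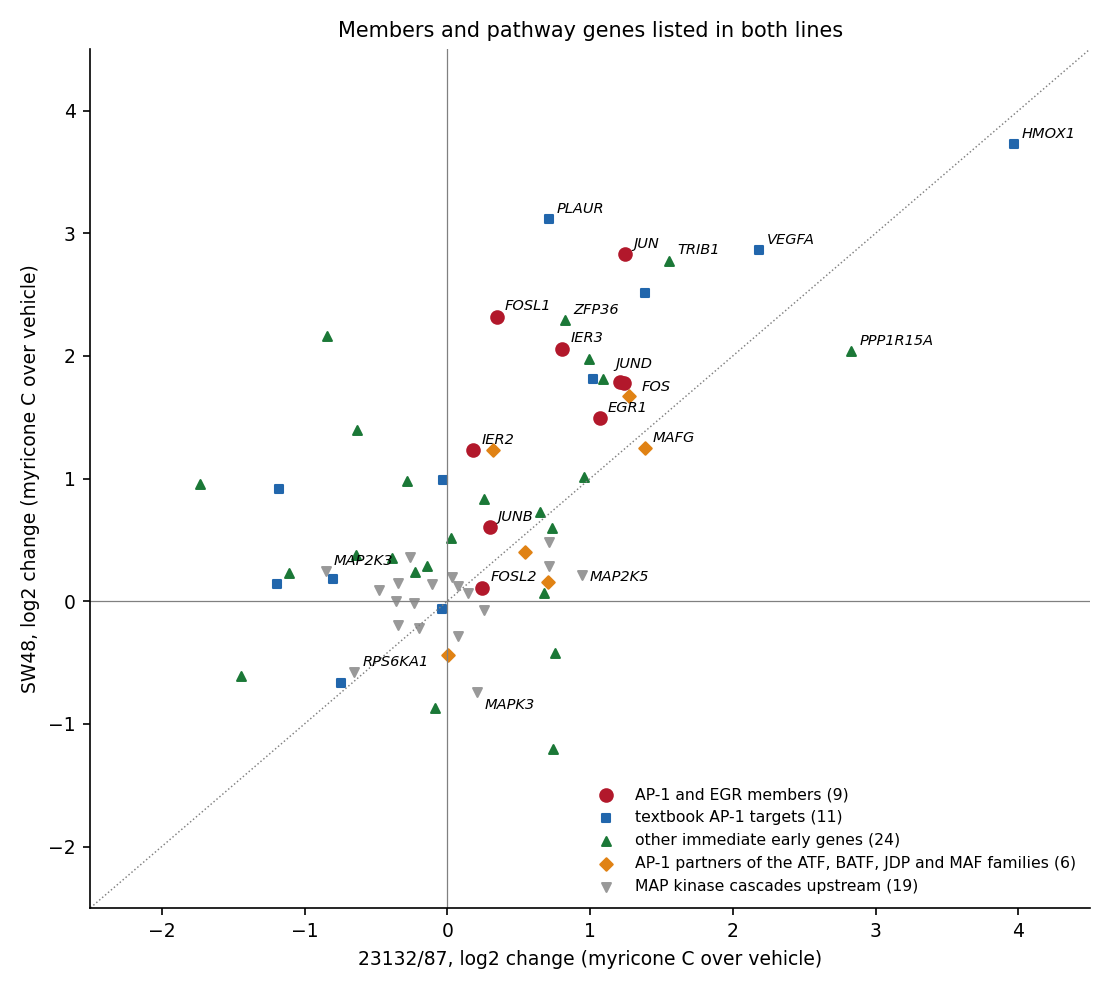
Log2 change, myricone C over vehicle on log2(value + 1), in SW48 on the vertical axis and in 23132/87 on the horizontal axis for members and pathway genes listed in both lines, with a dotted line where both changes are equal. Above the dotted line lie 8 of the 9 members, with FOSL2 below it, and PLAUR at 3.12 against 0.71 lies far above it.

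The gene whose pattern over the 12 libraries was most like that of each called member in both tables, which leaves out FOSB, was found among 5583 or 5584 genes with a mean of at least 10 in both tables. Likeness was the root mean square difference in log2(value + 1) after subtracting the vehicle mean of each line, so a smaller value is closer. For FOS it was JUND, at 0.258, and for JUND it was ATF4, at 0.144. JUN was closest to TRIB1, at 0.274, and FOSL1 to the laminin chain gene LAMB3, at 0.269. LAMB3 changed by 2.49 in SW48 and by 0.48 in 23132/87, where FOSL1 changed by 2.32 and 0.34. EGR1 was closest to ITPKC, at 0.243, IER2 to MIDN, at 0.101, and IER3 to EMP1, at 0.199. These are descriptions of the 12 libraries, whose shared treatment and line make many genes alike.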

How the data were processed

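Per the labels' protocols, a TruSeq Stranded mRNA kit was used for libraries of SW48 and 23132/87 cells. The submitters' processing notes name STAR, FastQC and GRCh38, with no tool versions. How reads were counted, with which strand setting and annotation, is not given in the sources used here. For each line the authors deposited a table of normalized signal per gene. These values resemble FPKM or TPM, and which it is could not be settled. The tables show no steps of whole reads, so depth is unknown and no counting interval or floor is given. Every listed gene has values of at least 1 in the 6 libraries of its table. The SW48 myricone C columns are numbered 2 to 4 and were matched through the sample descriptions.

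Tests used log2(value + 1), that is, a pseudocount of 1, and a minimum mean of 1, which removed 0 genes. The 6 libraries of a line were fitted together, apart from the other line, with limma 3.58.1 in R 4.3.3, with a mean-variance trend, no covariates and Benjamini-Hochberg adjustment over all listed genes, and calls were made at adjusted p under 0.05. The difference between lines (SW48 change minus 23132/87 change) was the interaction of line and treatment over the 10264 genes in both tables. Every adjusted p is two-sided and from these fits. Nothing states that replicates came from separate cultures beyond the label of biological replicate. The members and the 7 gene lists around them were chosen with earlier results of these data known, so their counts are descriptions with no test of the list.

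All 10 members were named. From each list the 2 genes with the largest absolute log2 change past the threshold in each line were named, and for each called member the 1 gene most like it. A gene named by this rule and a marker gene are not reported here. For ZFP36, PLAUR, TRIB1, PPP1R15A and MAFF, values of the other line stand beside those of the line where the rule named them. The means of the levels carry SDs over 3 libraries and changes carry limma's standard errors. Gene overlaps come from GENCODE release 29, on GRCh38, and promoters from RefSeq on GRCh38.p14. The scripts were tested on simulated data. Alternatives were quantile normalization, median centring, no trend, pseudocounts of 0.1 and 5, no filter, a filter of at least 10 in at least 3 libraries, all 12 libraries in 1 fit, replicate blocks and leaving out each library.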

Additional observations from a re-analysis of the deposited data

Results flagged for a closer look

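A total of 8 results were singled out because the myricone C change differed between the lines by limma's test of the interaction. Values are SW48 minus 23132/87, as differences of log2 changes. Among the members these were FOSL1 at 1.98 (adjusted p = 0.00814), JUN at 1.59 (adjusted p = 0.0486) and IER3 at 1.26 (adjusted p = 0.0298). FOSL1, JUN and IER3 were, in each line, higher in 3 of 3 myricone C libraries than in any vehicle library of that line. Of all genes, 16.8% were so in SW48 and 28.9% in 23132/87, and FOSL1 was not called in 23132/87 (limma adjusted p = 0.0703). Separation within a line does not bear on the difference between the lines.

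Among the pathway genes, the mRNA decay factor ZFP36 differed by 1.47 (adjusted p = 0.00952) and the urokinase receptor PLAUR by 2.40 (adjusted p = 0.000935), with larger rises in SW48. MAP2K3, an activator of p38, differed by 1.10 (adjusted p = 0.000695), with a change of 0.24 in SW48 that was not called and of -0.85 in 23132/87. MAPK3, which encodes ERK1, differed by -0.95 (adjusted p = 0.0173), with -0.74 in SW48 and 0.21, not called, in 23132/87, a call lost under the replicate block by column numbers. MAP2K5, the activator of ERK5, differed by -0.73 (adjusted p = 0.0346), with 0.21, not called, in SW48 and 0.94 in 23132/87, and lost this call in 10 alternatives. Groups of 3 libraries were not tested for a library far from the others.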

How the results depend on the processing

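The 8 calls in SW48 and the 5 in 23132/87 were kept in every alternative in which the gene could be fitted. The 23132/87 count of 5, where 46.5% of all genes were called in either direction, was 3 where at least 10 in at least 3 libraries was required. FOS and EGR1 did not pass that filter, and 53.7% of the genes that passed were called. The count was 5 to 6 when 1 library was left out, where 35.8% to 44.2% of all genes were called. The SW48 count of 8, where 29.3% of all genes were called, was 6 under that filter, where 39.1% were called. It was 7 with all 12 libraries in 1 fit, which FOSB could not enter, where 35% of all genes were called. It was 8 to 9 when 1 library was left out, where 19% to 31.6% were called. The count of 3 for the line difference, where 12.7% of all genes were called, was 1 to 5 when 1 library was left out. In those fits 8.09% to 13.8% of all genes were called. Libraries with the same title number did not deviate together, with correlations of -0.07, -0.18 and -0.14 in SW48 and -0.24, 0.11 and -0.27 in 23132/87. The 2 SW48 pairs that share a column number correlated at 0.15 and 0.27, the highest of that line, and whether those numbers mark a pairing is not known. With the replicate block by titles the count for the line difference was 1 (FOSL1), where 7.5% of all genes were called. By SW48 column numbers it was 2, where 9.2% were called, and the cause was not tested. Over all genes the block by titles lowered the calls for the difference to 770, against 1306 without it, and the calls in SW48 were 2199 without myricone C replicate 2, against 3383 with all libraries. The IER2 difference was called under quantile normalization, median centring, and without replicate 1 of either SW48 group. FOSL2, not called in SW48 or for the difference under any alternative, changed sign when 1 library was left out: it ranged from -0.061 to 0.29 in SW48, below 0 without vehicle replicate 3 (-0.023) or the treated replicate 2, and from -0.30 to 0.046 for the difference, above 0 without SW48 vehicle replicate 2 or myricone C replicate 1 (0.044). MAPK3 and RPS6KA1 lost their SW48 calls under the block by column numbers, as did the MAPK3 difference (-0.75, adjusted p = 0.0787). Depth is unknown, and with 3 libraries a group small changes can be missed.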
